A study of Mus musculus with 10 samples.

Results

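The regions described here are stretches of the mouse genome bound by p65 in regulatory T cells (Treg) stimulated through CD3 and CD28, listed in no other condition of the study and lying away from the ends of genes. Of 11923 regions in the union of 4 deposited peak lists, 4899 came from the stimulated Treg list and from none of the other 3. Of these, 3349 had their strongest summit more than 1 kb from every protein-coding gene start or end, and inside a gene or within 50 kb of it, and they make up the distal stimulated Treg only regions. The presence or absence of a peak in the lists chose these regions, so their presence in stimulated Treg and their strength there are a description and carry no test. A region missing from a list had no peak there that passed the authors' calling, which does not show that p65 was absent.

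The study compared Treg stimulated with plate-bound anti-CD3 and soluble anti-CD28 antibodies, Treg left unstimulated, conventional T cells (Tconv) stimulated in the same way, and Tconv left unstimulated. The cells came from spleens and lymph nodes of C57BL/6 mice, and stimulation lasted 3 h. IL-2 was present at 10 ng/ml with stimulated Treg and at 2 ng/ml with stimulated Tconv. Effects of cell type and of IL-2 dose therefore cannot be told apart between the stimulated lists. No IL-2 dose or time in culture is recorded for the unstimulated cells, so effects of stimulation and of IL-2 cannot be told apart either. The 8 libraries precipitated with the antibody against p65 formed 4 groups of 2, and 2 further libraries held input chromatin mixed from both cell types. The 2 libraries of a group were pooled into 1 list, which leaves no measure of the spread between replicates, the depth is unknown, and intervals below are 95% Wilson intervals that cover counting error over regions alone.

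p65 (RelA) is a subunit of NF-kB, a family of dimeric transcription factors held in the cytoplasm by IkB proteins. Signals from the T cell receptor and CD28 release it through protein kinase C and the IkB kinase complex, and it then binds short kB sites in promoters and enhancers. In Treg, NF-kB signalling is known to be needed for the development of the lineage and for the activated state that restrains immune responses.

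Most of the 3349 regions lie outside the promoter windows for which sequence was at hand. The strongest summits of 110 of them fell in 126 promoter windows of RefSeq (assembly GRCm38.p6, with mm10 coordinates), 86 of them at alternative starts of protein-coding genes and the others at starts of other transcripts. The NF-kB consensus, a 10-base pattern searched on both strands, was found in 10 of these windows, of which 2 are overlapping windows of the same transcript. Stretches of 100 bases around 6 of these matches are shown to let the matching letters be read in their context. The p65 summit lies inside the stretch at Gm39712 and AW112010 and outside it at the other 4, where it is in the same promoter window. Each is written 5′ to 3′ on the strand of the transcript, with the bases that match the consensus in capitals.

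Gm14009, a transcript outside Bcl2l11 (chr2:128189908-128190007, plus strand): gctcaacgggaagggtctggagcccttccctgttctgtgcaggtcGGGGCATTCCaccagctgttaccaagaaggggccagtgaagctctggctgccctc
4930578M01Rik, outside Tuba1a (chr15:98985868-98985967, plus strand): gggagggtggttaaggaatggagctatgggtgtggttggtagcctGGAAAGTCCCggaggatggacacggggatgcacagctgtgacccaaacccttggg
Bcl2l1, internal start (chr2:152830868-152830967, minus strand): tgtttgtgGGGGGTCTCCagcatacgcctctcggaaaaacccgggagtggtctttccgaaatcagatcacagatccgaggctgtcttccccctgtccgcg
Gm39712, inside Itpkb (chr1:180408409-180408508, minus strand): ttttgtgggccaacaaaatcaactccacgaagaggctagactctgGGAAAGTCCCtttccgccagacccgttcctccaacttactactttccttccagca
Stn1, internal start (chr19:47537182-47537281, minus strand): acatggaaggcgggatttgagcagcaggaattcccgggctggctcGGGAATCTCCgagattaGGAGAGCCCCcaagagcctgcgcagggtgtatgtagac
AW112010, outside Ms4a8a (chr19:11050582-11050681, minus strand): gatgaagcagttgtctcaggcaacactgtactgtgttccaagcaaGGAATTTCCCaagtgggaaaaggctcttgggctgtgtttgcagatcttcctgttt

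The region at the Gm14009 start was 16.96-fold over its local background in stimulated Treg, with its summit 160 bases before the annotated start. Bcl2l11, its nearest protein-coding gene at 27.3 kb, encodes the death-promoting protein BIM. The other 5 regions shown lay between 6.40-fold at AW112010 and 10.04-fold at 4930578M01Rik. Bcl2l1, which encodes the survival protein BCL-xL, had 8.40-fold at a start 3.11 kb from its nearer gene end, and Itpkb, an inositol trisphosphate kinase of T cell receptor signalling, had 7.55-fold at a start inside the gene. The region at Gm14009 was thus stronger than most of the 3349 regions described below, and the other 5 were close to or below their median. The matching letters mark a sequence and not a measured site.

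Fold enrichment, here and below, is the authors' own value of each peak, the p65 signal at the summit over the local background. The 3349 regions had a median of 9.58-fold (range 2.56 to 63.0; middle quartiles 8.07 to 12.2). The 2309 distal regions that both stimulated lists held and neither unstimulated list did had a median of 18.1-fold in stimulated Treg, and the 1072 gene-end regions in stimulated Treg only had 8.72-fold. All 10898 union regions with a stimulated Treg peak had a median of 11.5-fold. The distal Treg only regions were thus mostly of moderate strength, below distal regions of both cell types and slightly above their gene-end counterparts.

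The regions had a median width of 769 bp (300 to 4536), against 1285 bp in the distal regions of both stimulated lists. More than 1 summit was joined in 219 of them (6.54%, 5.75 to 7.43%) and in 23.0% (21.3 to 24.7%) of the distal regions of both. Regions of both lists span merged Treg and Tconv peaks, which can widen them and join separate Treg peaks. The measures are therefore unlike, and nothing is read from these differences. Gene-end regions in stimulated Treg only, also outlined by Treg peaks alone, had a median width of 942 bp. When the 10898 stimulated Treg regions were ranked by fold enrichment and cut into deciles, 41 of the 1090 strongest (3.76%) were distal Treg only regions, and 575 of the 1089 weakest (52.8%). The share rose at each step between, while that of distal regions of both stimulated lists fell to 3.95% in the weakest decile, against 51.5% in the strongest. The stimulated Tconv list ended at a −log10 p of 38.1 and the stimulated Treg list at 26.6, and 1234 of the 3349 regions (36.8%, 35.2 to 38.5%) lay below the weakest Tconv peak. For these regions a peak of equal strength in Tconv would not be in the Tconv list, and 2115 regions lay at or above it. With the same minimum applied to all 4 lists the set held 2174 regions, and with all lists cut to the length of the shortest it held 650, of which 313 were among the 3349.

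**Figure D1:**
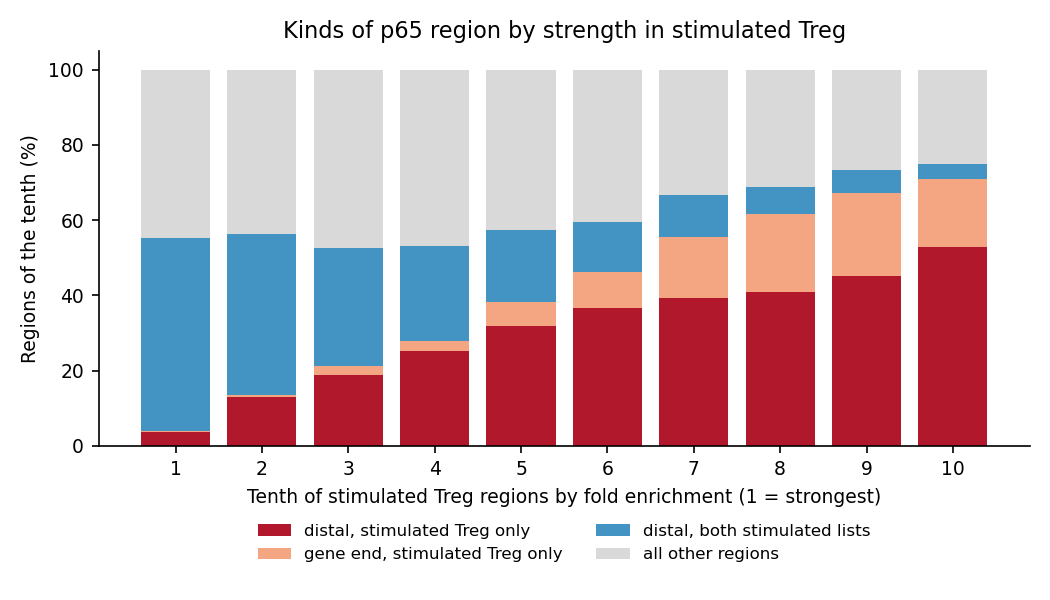
Stacked bars give, for each decile of stimulated Treg regions by fold enrichment (strongest at the left), the percent that were distal Treg only regions, gene-end Treg only regions, distal regions of both stimulated lists and all others. The red share grows to 52.8% in the weakest decile, against 3.76% in the strongest, and the blue share does the opposite.

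Most of the regions lay inside genes. Their summit was inside a protein-coding gene in 2244 of 3349 cases (67.0%, 65.4 to 68.6%), and in 1480 of 2309 distal regions of both stimulated lists (64.1%, 62.1 to 66.0%). The shares differed by an odds ratio of 1.14 (two-sided Fisher's exact test over regions, p = 0.0243; adjusted over 3 tests by Benjamini-Hochberg, p = 0.0729), which did not pass 0.05 after adjustment. A summit lay within 1 kb of an annotated start, noncoding transcripts and internal starts included, in 237 of 3268 regions on chromosomes with start annotation (7.25%) and in 156 of 2246 distal regions of both (6.95%; odds ratio 1.05, exact adjusted p = 0.670). Among regions outside genes with a known strand, 485 of 864 (56.1%) were upstream of the gene, against 383 of 641 (59.8%) in the distal regions of both (odds ratio 0.862, exact adjusted p = 0.255). Neither of these last differences was detectable over regions, which are not replicates of a condition. The test treats regions as independent, while 42.3% of the 3349 lay in runs of neighbours described below, so its p values may be too small. Starts were near fewer of the Treg only regions at a common −log10 p minimum (6.37% and 9.53%, exact adjusted p = 0.00027). With a reciprocal overlap of 50% the inside shares were 67.6% and 63.7% (exact adjusted p = 0.00648). Both sets were formed anew in each of these settings. A region could change class when its peak in another list fell below the minimum or overlapped too little. The adjustment covered only the 3 tests of each setting, and these shares depend on how the lists are compared.

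Inside genes, the summit was 1 to 5 kb from the nearer gene end in 505 regions, 5 to 20 kb in 689, 20 to 100 kb in 867 and over 100 kb in 183. Outside genes, 475 lay within 10 kb, 363 at 10 to 25 kb and 267 at 25 to 50 kb. The median distance to the nearest gene end was 14.9 kb. The distance rule had regions close to each limit: the nearest kept were at 1002 bp outside Smad6 (8.07-fold), 1004 bp inside Stk35 (9.55-fold) and 1007 bp inside Kdm4d (7.55-fold), and the nearest left out were at 993 bp at Pmepa1 (10.4-fold), 995 bp at Vps54 (10.4-fold) and 1000 bp at Cyb5r3 (8.20-fold). At the outer limit, regions 49.6 kb from Slc9a9, 49.9 kb from D16Ertd472e and 49.9 kb from Ado were kept, and regions 50.8 kb from Rcl1, 50.9 kb from Egr2 and 50.9 kb from Jak1 were left out.

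Many of the regions had p65 bound in stimulated Tconv at some distance. The nearest stimulated Tconv region was a median of 20.7 kb away, within 1 kb for 264 regions (7.88%, 7.02 to 8.84%), within 10 kb for 1241 (37.1%, 35.4 to 38.7%) and within 50 kb for 2234 (66.7%, 65.1 to 68.3%). Some of the strongest were far from any: the 63.0-fold region in Itgb8 was 792 kb from the nearest stimulated Tconv region, and the 49.2-fold region in Mdfic 1270 kb. Unstimulated binding was farther still, with medians of 96.8 kb to the nearest unstimulated Treg region and 125.6 kb to the nearest unstimulated Tconv region.

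**Figure D2:**
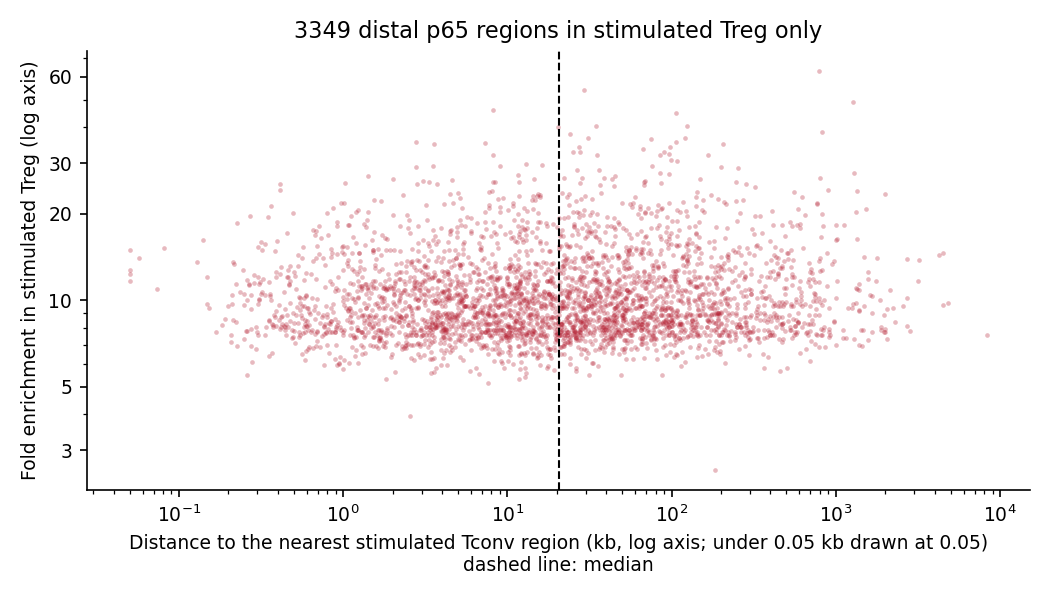
Each of the 3349 distal Treg only regions is a point, placed by its distance to the nearest stimulated Tconv region (kb, log axis) and its fold enrichment in stimulated Treg (log axis), with the median distance of 20.7 kb dashed. Regions above 40-fold lie on both sides of the median, and a few points stand beyond 1000 kb.

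The regions were assigned to 1862 of 21887 protein-coding genes (8.51%), each region to the gene whose body was nearest. A single region was found at 1199 genes, and 3 or more at 319 (1.46% of all protein-coding genes). Their median length was 47.9 kb, against 48.7 kb for the 1351 genes with a distal region of both stimulated lists, 29.0 kb for the 5501 genes with any stimulated Treg region and 17.2 kb for all protein-coding genes, and the 27 genes with 8 or more regions had a median of 186.8 kb. Of the 1862 genes, 878 (47.2%, 44.9 to 49.4%) had no stimulated Tconv region assigned to them, against 36.8% (35.6 to 38.1%) of the 5501. The rule chose the 1862 genes through regions absent from the Tconv list, so nothing is read from this difference. A distal region of both stimulated lists stood beside the Treg only ones at 673 genes (36.1%), against 24.6% of the 5501. A stimulated Treg region at a gene end was found at 683 (36.7%, against 64.7%) and an unstimulated region of either cell type at 615 (33.0%, against 47.6%). The rule chose the 1862 genes through distal regions absent from the unstimulated lists, so nothing is read from these differences either. Among the 319 genes with 3 or more, 216 (67.7%) also had a distal region of both stimulated lists and 61 (19.1%) had no stimulated Tconv region.

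The 10 genes with the most regions had 11 to 24 each. Inpp4b, a phosphoinositide phosphatase gene of 792 kb, and Foxp1, a forkhead transcription factor gene of 597 kb tied to T cell quiescence, had 24 each. Their regions were of moderate strength, at most 18.8-fold in Inpp4b and 17.8-fold in Foxp1, and both genes also held distal regions of both stimulated lists (10 at Inpp4b and 14 at Foxp1). Tox, an HMG-box transcription factor gene, had 16 beside 3 distal regions of both. Prkch and Prkca, which encode protein kinases C eta and alpha, had 15 and 12, beside 9 and 1 distal regions of both. The DNA repair gene Rad51b had 12 beside 3 distal regions of both. Cd226, an activating receptor gene that shares its ligand with Tigit, the survival gene Bcl2 and Akap13, a kinase anchoring protein gene, had 11 each. At Akap13 the distal regions of both stimulated lists, 13 in number, outnumbered those of Treg only, while Bcl2 had 4 and Cd226 had 1.

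Ikzf2, which encodes Helios, an Ikaros family transcription factor carried by many thymus-derived Treg, had the pattern with the fewest Tconv regions among these 10 genes. It held 20 distal Treg only regions of 21 stimulated Treg regions, and 0 stimulated Tconv regions. Of the 20, 17 lay inside the gene, and they ranged from 8.28-fold to 44.8-fold. The strongest lay 16.4 kb outside the gene, and the next, of 35.0-fold, 32.0-fold and 22.3-fold, lay inside it. The one other region, at the gene end, was 9.72-fold in stimulated Treg and 5.72-fold in unstimulated Treg.

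The strongest of all was inside Itgb8, 1.90 kb from its nearer gene end, at 63.0-fold, which ranked 77 in the stimulated Treg list. Itgb8 encodes integrin beta 8, which pairs with the alpha V chain to activate latent TGF-beta. Another region in the gene reached 38.6-fold, and the 7 regions at Itgb8 went down to 6.87-fold, with 0 stimulated Tconv and 0 unstimulated regions. Tnfrsf8, which encodes the TNF receptor CD30, had 54.0-fold inside the gene and 4 regions, and no stimulated Tconv region. Mdfic, a gene of the MyoD family inhibitor domain, had 49.2-fold and 9 regions, also with 0 in stimulated Tconv. Nxpe3 had 45.9-fold, with a stimulated Tconv region 8.21 kb away from it that was assigned to another gene.

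A cluster of 10 regions with no other stimulated region among them lay over 53.0 kb between Lrrc32 and Emsy on chromosome 7. Lrrc32 encodes GARP, the receptor that docks latent TGF-beta on the Treg surface, and Emsy a chromatin-associated repressor. The 2 regions nearest to Lrrc32 were 29.9 kb and 32.8 kb from it, at 40.3-fold and 36.9-fold, and those assigned to Emsy reached 36.4-fold and 32.8-fold. The nearest stimulated Tconv region, at the far end of Emsy, was 29.1-fold in stimulated Treg and 32.1-fold in stimulated Tconv. Of the regions assigned to Emsy, 1 was listed in unstimulated Treg.

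**Figure D3:**
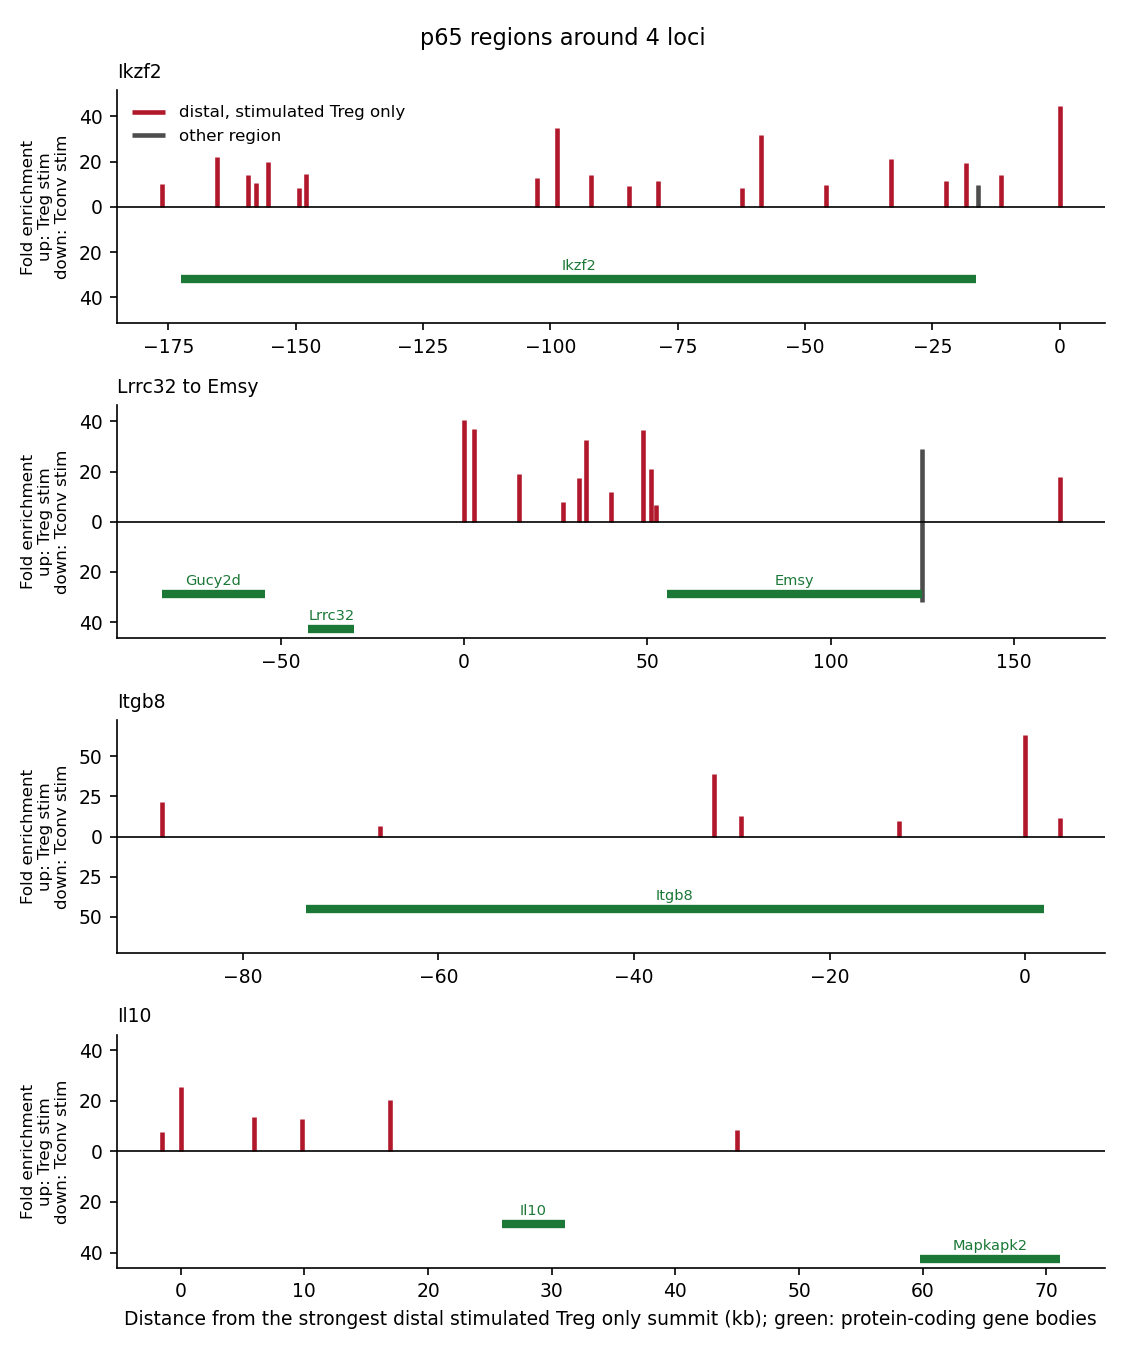
Vertical lines are p65 regions at 4 loci with 40 kb on each side, at their distance in kb from the strongest distal Treg only summit, with fold enrichment in stimulated Treg drawn upward and in stimulated Tconv downward, and gene bodies in green. The Ikzf2, Itgb8 and Il10 windows hold 20 of 21, 7 of 7 and 6 of 6 regions in red and no line downward, and the Lrrc32 to Emsy window holds 11 of 12 in red and 1 shared region.

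Other strong regions lay at Ptger2, a prostaglandin E2 receptor gene (40.3-fold and 35.6-fold, both downstream), Twsg1, a modulator of BMP signalling (40.0-fold, inside), Eea1, an endosomal tether gene (38.0-fold, upstream), Cd47, which encodes a ligand that restrains phagocytosis (36.9-fold, downstream), and Mapre2, a microtubule end-binding protein gene (35.7-fold, outside). Ptger2 had 6 such regions in all and Cd47 had 8. Neighbouring regions with gaps of at most 12.5 kb were joined into runs: 557 runs of 2 or more held 1418 of the 3349 regions (42.3%), and 66 runs held 4 or more. After the run between Lrrc32 and Emsy, the longest was 9 regions at Tubd1 and Vmp1 over 45.6 kb, with 2 stimulated Tconv regions in it, and then 8 and 7 at Ikzf2 and 7 at Tox.

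Of 38 genes of Treg identity, 26 had at least 1 such region, with 105 regions in all and a median of 12.0-fold, beside 8.51% of all protein-coding genes. The same 8.51% is the background for the counts of the lists that follow. The genes of the Treg identity list sum to 2.04 Mb, and 105 of their 133 distal stimulated Treg regions (78.9%, 71.3 to 85.0%) were in stimulated Treg only, beside 52% of all 6441. Over the T cell lists this share ran from 29.8% (NF-kB family and feedback) to this 78.9%, with T cell receptor signalling at 47.1%. The rule set the 52%, and the list genes were chosen with earlier results known. Nothing is therefore read from these shares. Foxp3, the lineage-defining transcription factor of Treg, had 1 such region, of 32.1-fold, inside the gene and 4.47 kb from its nearer end, and no stimulated Tconv region. The neighbouring gene Ppp1r3f had a pair of them, of 30.8-fold and 14.3-fold, which were noticed after their values were seen. Il10, an anti-inflammatory cytokine gene of 5.13 kb, had 6 outside the gene, at 25.5, 20.1, 13.7, 12.7, 8.59 and 7.67-fold, and no region in any other list. Rora, a nuclear receptor gene, had 9 of at most 19.9-fold, also with 0 in stimulated Tconv. Dusp4, a MAP kinase phosphatase gene, had 6 of at most 27.0-fold. Cd83, a surface glycoprotein gene, also had 6, of at most 24.0-fold.

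Il2ra, which encodes the high-affinity IL-2 receptor chain CD25, showed both kinds of region side by side. It had 6 distal Treg only regions, 3 upstream of at most 9.69-fold and 3 inside of 13.2, 31.9 and 12.7-fold. Beside them, 3 distal regions of both stimulated lists had 49.3, 32.8 and 26.9-fold in stimulated Treg and 19.4, 11.4 and 10.9-fold in stimulated Tconv. A further region in the gene, 62.9-fold in stimulated Treg and 34.8-fold in stimulated Tconv, was also listed in unstimulated Treg at 6.72-fold. The gene-end region was 21.7-fold in stimulated Treg and 18.7-fold in stimulated Tconv. The kinds of region overlapped in strength at Il2ra, where the strongest Treg only region lay above the weakest distal region of both stimulated lists. Ctla4, a co-inhibitory receptor gene of Treg, had 6 of 6.14 to 12.7-fold around a gene-end region of 31.3-fold in stimulated Treg and 11.7-fold in stimulated Tconv, and none was left with lists of equal length. The co-stimulatory receptor gene Icos had 5 of at most 9.88-fold, and the inhibitory receptor gene Tigit 5 of at most 17.3-fold.

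Genes of the TGF-beta pathway had such a region at 11 of 18, with 26 regions. Besides Itgb8 and Lrrc32 they were at Itgav, the partner chain of Itgb8 (14.9 and 14.0-fold), Nrp1, a co-receptor (20.7 and 6.98-fold), and Furin, a convertase that processes pro-TGF-beta (23.0-fold). The signal mediator Smad3 had 17.6-fold. The repressors Ski and Skil had 3 regions each, of at most 10.2-fold and 11.5-fold, and the feedback inhibitor Smad7 had 2 of at most 10.5-fold. The strongest regions of this list lay at Itgb8 and Lrrc32, and those at the repressors were close to the median of all 3349 regions.

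In the Ikaros family, 4 of 5 genes had a region. Beyond Ikzf2, Ikzf1 had 5 of at most 10.6-fold beside 6 distal regions of both stimulated lists, Ikzf4, which encodes Eos, had 2 of 9.55 and 9.22-fold, and Ikzf3 had 1 of 11.3-fold. Ikzf2 and Ikzf4 had no stimulated Tconv region, while Ikzf1 had 7.

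Among co-stimulatory and TNF receptors, 12 of 20 genes had such a region, with 57 in all. Cd2, an adhesion receptor gene, had 7 of at most 16.6-fold and Cd6, another surface receptor gene, 6 of at most 21.7-fold, and Tnfrsf9, which encodes 4-1BB, had 3 of at most 19.9-fold. A stronger region inside Cd2 was 96.5-fold in stimulated Treg, 50.5-fold in stimulated Tconv and 5.81-fold in unstimulated Treg. Cd6 also had 2 distal regions of both stimulated lists. Of 15 inhibitory receptor genes, 10 had one, with 32 in all. Cd200 had 6 of at most 20.7-fold and Btla, a receptor for HVEM, 5 of at most 22.9-fold, and Btla also had 2 gene-end regions that both stimulated lists held (49.7 and 23.0-fold in stimulated Treg, 30.5 and 12.5-fold in stimulated Tconv). Lists can share genes, and Ctla4 is counted in both.

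Signalling genes of the T cell receptor had one at 22 of 32, with 66 regions of 5.93 to 28.3-fold and a median of 9.22-fold. The strongest lay 9.80 kb downstream of Lcp2, which encodes the adaptor SLP-76. Prkcq, which encodes protein kinase C theta, the isoform that links the T cell receptor to NF-kB, had 7 of at most 23.7-fold beside 10 distal regions of both stimulated lists. Ubash3b, a phosphatase gene that dampens the receptor's signal, had 5 of at most 20.9-fold and Ptpn22, another phosphatase gene, 5 of at most 16.3-fold. Cytokine receptor, JAK and STAT genes had one at 22 of 38, with 52 regions, among them 6 at Jak1 of at most 9.55-fold and 5 at Stat4 of at most 13.2-fold. T cell lineage transcription factors had one at 28 of 44, with 109 regions, of which Foxp1, Tox and Rora held 49 together.

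Of 32 NF-kB family and feedback genes, 10 had one. Their 57 distal stimulated Treg regions held 17 of these (29.8%, 19.5 to 42.7%), beside 52% of all 6441. The strongest lay 14.5 kb upstream of Tank, an adaptor gene of TRAF proteins, at 32.9-fold. Nfkbia, which encodes the inhibitor IkB alpha, had 3 downstream, at 26.5, 22.4 and 7.46-fold, and the gene-end region next to them was 101.6-fold in stimulated Treg and 82.3-fold in stimulated Tconv. Nfkb1, which encodes p105 and p50, had 3 of at most 12.0-fold beside 5 distal regions of both. Of 33 immediate-early, AP-1 and NFAT genes, 15 had a region, with 28 in all, led by Dusp4 and by Batf, an AP-1 family gene, with 24.2-fold. Nr4a3, an immediate-early nuclear receptor gene, had 3 of at most 13.3-fold.

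Of 33 cytokine and TNF ligand genes, 7 had one. Besides Il10, they were Tnfsf8, which encodes CD30 ligand, with 6 of at most 22.7-fold beside 3 distal regions of both, Ifng with 3 of 19.5, 13.9 and 7.85-fold, and Lif, Fasl, Cd40lg and Tnfsf9. Of 28 survival and apoptosis genes, 14 had one, with 33 regions and a median of 14.0-fold. Bcl2 had 11 of 6.57 to 22.4-fold, 6 of them in a run of 21.5 kb with no Tconv region, Pim1, a survival kinase gene, had 3 of at most 25.4-fold and the initiator caspase gene Casp8 had 3. Of 31 chemokine receptor and trafficking genes, 12 had one, with 19 regions, led by S1pr1, the receptor for lymphoid exit, with 6 of at most 23.7-fold.

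Lists of markers of other cells and of control genes were set beside the 8.51% of all protein-coding genes. Of 15 B cell marker genes 1 had a region (6.67%), Btk at 7.31-fold, and of 18 myeloid and dendritic marker genes 0 did, with 0.509 Mb of gene between them. Of 30 neuronal and liver genes, which sum to 15.4 Mb, 0 had one, and of 42 ribosomal protein genes 3 did (7.14%). The B cell and ribosomal shares were close to that of all genes. Per Mb of summed gene length, the short ribosomal genes had 17.96 regions, against 3.19 over all genes. This measure counts regions up to 50 kb outside a gene but divides by the gene bodies alone, so it can run high for short genes. The 3 ribosomal regions all lay outside their genes, 16.4 kb from Rpl3, 6.75 kb from Rpl11 and 3.26 kb from Rpl34. The T cell lists ran from 14.5 (NF-kB family and feedback) to 111.5 (co-stimulatory and TNF receptors). The NF-kB list and the TGF-beta list, at 16.7, were thus below the ribosomal genes by this measure. That order rests on 3 ribosomal regions, none of them inside the length counted, so nothing is read from it. The files hold binding and no expression, so the sorted cell types could not be checked against marker expression.

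**Figure D4:**
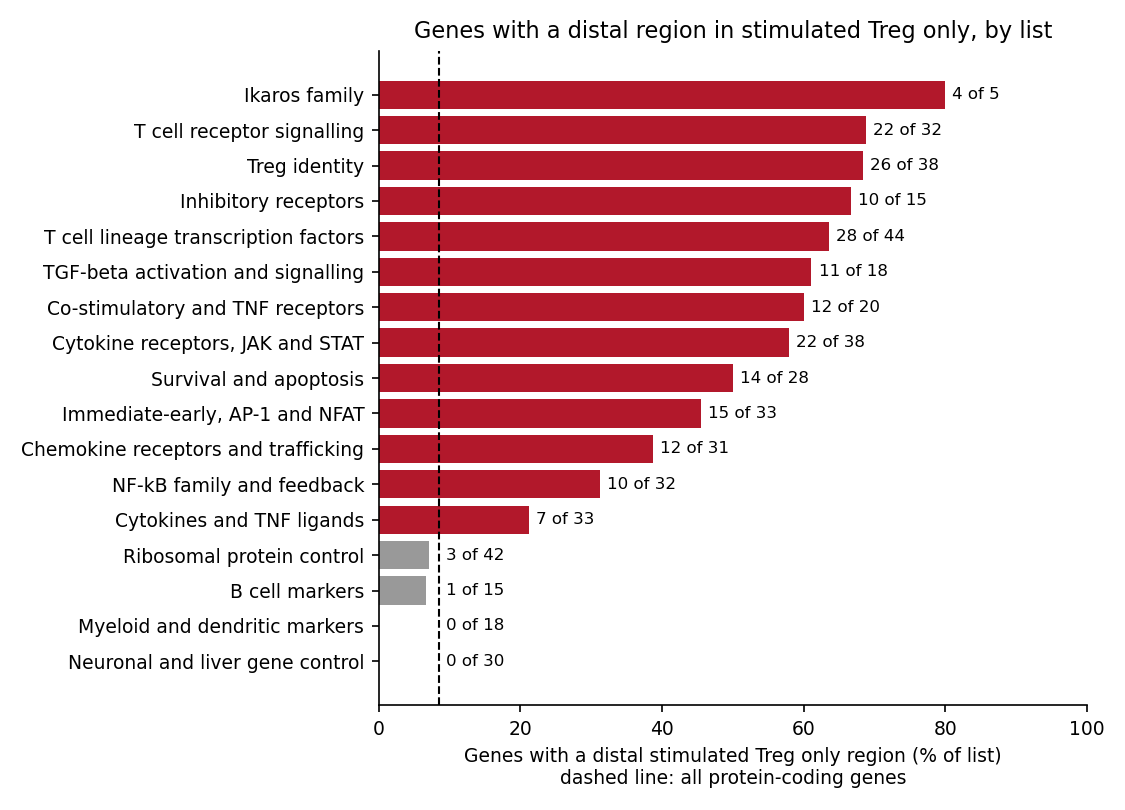
Bars give the percent of genes in each list with at least 1 distal Treg only region, with the numbers beside them and the dashed line at 8.51%, the value of all protein-coding genes. The T cell lists lie between 21.2% and 80%, and the 4 lists of other cells and control genes, in grey, between 0% and 7.14%.

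In promoter windows, which run from 250 bases before to 50 after an annotated start, the NF-kB consensus was found in 10 of the 126 that held a summit of these regions (7.94%, 4.37 to 14.0%). It was found in 9 of 69 windows with a summit of a distal region of both stimulated lists (13.0%, 7.02 to 23.0%) and in 1480 of all 32851 windows (4.51%). GGGANTTTCC, a stricter form, was found in 3, 2 and 135 of them. The AP-1 pattern TGANTCA was in 5 of the 126 (3.97%, 1.71 to 8.95%), in 13 of the 69 (18.8%, 11.4 to 29.6%) and in 7.81% of all. The ETS pattern CCGGAA was in 34 of the 126 (27.0%), in 20 of the 69 (29.0%) and in 14.9% of all, and the forkhead pattern TGTTTAC in 6 (4.76%), in 4 (5.80%) and in 3.65%. The RUNX pattern TGTGGT was in 14 (11.1%), in 16 (23.2%) and in 16.8%, the NFAT pattern TGGAAA in 30 (23.8%), in 23 (33.3%) and in 21.4%, the cyclic AMP response pattern TGACGTCA in 4 (3.17%), in 5 (7.25%) and in 1.79%, and the GC box GGGCGG in 70 (55.6%), in 27 (39.1%) and in 35.7%. These windows differ in base composition, with a median of 59.3% G or C in the 126, 55% in the 69 and 52.7% in all, and its part in these shares was not tested. They hold 110 of the 3349 regions, so they do not stand for the rest.

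Small RNA genes lay near some of the regions. Of 1005 annotated miRNA genes, 44 (4.38%) had a distal Treg only summit within 10 kb, and 42 (4.18%) had a summit of a distal region of both stimulated lists. The mature forms (RefSeq) of some that are known in T cell responses are shown, with the seed, bases 2 to 8, in capitals.

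miR-21a-5p: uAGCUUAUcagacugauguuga
miR-146a-5p: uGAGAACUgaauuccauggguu
miR-15b-5p: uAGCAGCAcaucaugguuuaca
miR-16-5p: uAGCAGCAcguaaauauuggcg
let-7g-5p: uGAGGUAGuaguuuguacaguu

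These were picked from the 44 after their distances were seen. Mir21a, next to Vmp1, had 5 regions within 10 kb, the nearest at 0.709 kb with 6.47-fold, and it lies in the run at Tubd1 and Vmp1 described above. A distal region of both stimulated lists also lay 7.92 kb from Mir21a. Mir146, which encodes miR-146a, a feedback inhibitor of NF-kB signalling through TRAF6 and IRAK1, had 2, the nearest at 2.92 kb with 8.07-fold. Mir15b and Mir16-2, neighbours in the gene Smc4 whose 5p forms share the seed AGCAGCA, had 1 region of 8.79-fold at 0.537 kb and 0.376 kb. Mirlet7g, in Wdr82, had a region of 20.2-fold at 3.05 kb, the strongest at these 5 miRNA genes.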

How the data were processed

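Binding of p65 was measured by ChIP-seq in stimulated and unstimulated Treg and Tconv of C57BL/6 mice. The build mm10, MACS2 2.1.1.20160309, BWA 0.7.15-r1140 and Trim Galore 0.4.1 appear in the submitters' processing notes. Per the labels, each group has 1 list of peaks from its pooled libraries. The authors' fold enrichment is a ratio over local background. The −log10 p is the authors' deposited value, and the deposited score is 10 times the −log10 p. No source used here says how the input libraries entered the calling, and the lists give no read numbers.

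Overlapping peaks of a list were merged, and the 4 lists were then merged with an overlap of at least 1 bp. Each region took the summit of its highest fold. RefSeq's table for GRCm38.p6 gave 21887 protein-coding genes, and each region went to the nearest gene body. The 17 gene lists hold 441 genes, each matched to the table. Strand came from RefSeq's promoter table and was known for 17492 genes. Windows on chromosome 18 were not used here, so start distances were compared on the other chromosomes. No genome was used, so the planned motif test at all summits was replaced by a description of promoter windows. Fisher's exact test was two-sided with Benjamini-Hochberg adjustment over 3 tests, 2 of which were added after the files were seen. Each alternative setting was adjusted over its own 3 tests alone, and regions of the same run or gene were counted as independent.

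The regions and gene lists were chosen with earlier results of these data known. Named genes are those nearest to the 15 strongest regions, the 10 genes with the most, and the 3 with the most in each list, and further list genes were chosen after their values were seen. The overlap and gene assignment code was tested on simulated data and checked by brute force on 300 regions, with 0 disagreements. Computing used Python 3.11.15, pandas 2.3.3, numpy 2.4.6 and scipy 1.17.1.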

Additional observations from a re-analysis of the deposited data

How the results depend on the processing

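No paired analysis was possible because each group has 1 list made from both of its libraries, and for the same reason no library could be left out. The number of distal Treg only regions was 2174 at a common −log10 p minimum of 38.1, 1020 with stimulated Treg fold at or above the list median, and 650 with every list cut to the length of the shortest, 2961 regions. The last holds 313 of the 3349 regions, so which regions count as Treg only depends on list length. The number of genes was 733 at or above the median fold, 473 with equal lengths and 3804 with every gene within 50 kb. With every gene within 50 kb (17.4% of all genes), the cytokine and TNF ligand list had 13 genes, the B cell list 2 and the ribosomal list 9. At the common minimum (6.15% of all genes) the B cell list had 0, and within 10 kb (7.25%) the TGF-beta list had 7. Under these settings the counts of the other gene lists stayed within 1.5 times. Among others, Ctla4, Ikzf4, Jak1, Ptpn22, Stat4, Nr4a3, Ski and Skil had 0 such regions with equal lengths, while Ikzf2 had 7, Itgb8 3 and Il10 2.

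The inside share was higher than in distal regions of both lists by 3.89 percentage points with a reciprocal overlap of 50% (67.6% and 63.7%; Fisher's exact test, adjusted p = 0.00648), where it passed 0.05. The share near an annotated start reversed, to -2.52 points in the upper 50% of fold (adjusted p = 0.0172), -0.448 with the reciprocal overlap (adjusted p = 0.541) and -3.16 at the common minimum (6.37% and 9.53%, adjusted p = 0.00027; Fisher's exact test). The upstream share reversed to 2.37 points in the lower 50% of fold (exact adjusted p = 1.0). Both sets were formed anew in the reciprocal overlap and common minimum settings, so their regions differ from those of the main comparison. The causes were not tested. The stricter NF-kB form gave 2.38% of promoter windows and a looser one 78.6%, an alternative chosen after seeing the data, as were those of the start and upstream shares. The other motif windows and motif shares by fold were not run, since no genome was used.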
